A study of Homo sapiens with 20 samples.

Results

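The set described here holds 34 human genes of the interferon response and of antigen presentation, out of 27896 gene symbols in the deposited count table. They were chosen by name, as interferon-stimulated genes, their transcription factors, cytosolic RNA sensors, and the parts of the machinery that cuts peptides and displays them on major histocompatibility complex (MHC) class I molecules. A gene was taken by its symbol, and the transcript with the most reads stood for it. With too few reads for the test, IFI44, OAS1 and OAS2 stayed out, so 31 of the 34 were among the 16432 genes tested. The annotation of the table gives more than 1 copy for 7 members, all on chromosome 6: PSMB8, PSMB9, TAP1 and TAP2 have 8, HLA-C and HLA-E 7, and HLA-B 6. Reads of these 7 could be shared with other copies, so their values are uncertain.

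All cells were HEK293-GR, a line derived from human embryonic kidney that constitutively expresses the glucocorticoid receptor (GR), and all were kept in medium depleted of steroids for 48 h. For RNA, cells received 20 nM of a small interfering RNA pool for 72 h, either directed at BCOR (siBCOR) or non-targeting (siNON). They then received 100 nM dexamethasone (dex), a synthetic glucocorticoid, or its ethanol vehicle for 6 h, which gives 4 groups of 4 poly(A) RNA libraries (named siNON or siBCOR with vehicle or dex). For ChIP-seq of BCOR, cells with no siRNA named received 100 nM dex or vehicle for 1 h, and each treatment has 2 libraries. The receptor is supplied by constitutive expression, and every group carries it. Its RNA, NR3C1, was 1.41-fold lower with dex in siNON and 1.28-fold lower in siBCOR cells. With depletion NR3C1 was 1.22-fold higher in dex (adjusted p = 0.000876), and its part in the results was not tested. The series text names 3 RNA replicates, its extraction protocol 4, and 4 are labelled and were used.

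Type I interferons bind a receptor whose kinases JAK1 and TYK2 phosphorylate STAT proteins, STAT2 among them. STAT2 and IRF9 are parts of the complex ISGF3, which binds the interferon-stimulated response element (ISRE) in promoters of genes such as the IFIT and OAS families. Interferon gamma acts through STAT dimers on the gamma-activated site (GAS) and raises the immunoproteasome, the TAP peptide transporter and MHC class I. BCOR is a corepressor that binds BCL6 and is a subunit of a Polycomb repressive complex, and the activated receptor can both raise and lower transcription.

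Reads over the chosen transcripts came to 18580291 to 28054809 per library. BCOR itself was 8.77-fold lower in siBCOR than in siNON cells in vehicle (log2 fold change -3.13 ± 0.123 SE) and 6.36-fold lower in dex (-2.67 ± 0.123), and it also fell with dex in siNON cells, by 1.06 on the log2 scale. The 8 markers of the HEK293 line summed to 1385 to 1571 CPM (reads scaled to library size) in siNON and to 1225 to 1357 CPM in siBCOR libraries. Of 10 immune cell markers 2 were tested, CD14 and LYZ, the 10 summed to 1.3 to 2.08 CPM, and MS4A1 had 0 reads. Fibroblast markers summed to 26.0 to 50.1 CPM and endothelial markers to 1.04 to 2.2 CPM with groups that overlapped. The erythroid markers, HBA1 and HBB, summed to 1.95 to 3.26 CPM in siNON and to 0.882 to 1.98 CPM in siBCOR libraries, with HBB at 0 reads in all. The part of these markers in the results was not tested. On the leading axis of variation within groups, which holds 39.1% of that variation, siNON dex 4 and siNON vehicle 3 stood apart at -30.82 and -30.16. At the other end of this axis siBCOR vehicle 2 lay nearly as far out, at 27.35. It was left out only on its own, and the libraries said below to stand apart are those siNON libraries. In these bulk samples, fewer cells that express a gene and less RNA per cell cannot be told apart.

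The promoters below are those of 3 IFIT genes from 1 cluster on chromosome 10, the adjacent pair TAP1 and PSMB9, and DTX3L. At the DTX3L start the authors list a dex-enriched BCOR peak. With all libraries, IFIT5 and DTX3L passed the test in no comparison below. Each promoter runs 5′ to 3′ over 300 bases, 250 before to 50 after the start, from RefSeq on GRCh38.p14. Capitals mark the ISRE core, which is GAAA, any 2 bases and GAAA, on either strand. No GAS (TTC, any 3 bases and GAA, which reads alike on both strands) lies in these 6 windows.
IFIT1 (chr10:89392373-89392672, plus strand): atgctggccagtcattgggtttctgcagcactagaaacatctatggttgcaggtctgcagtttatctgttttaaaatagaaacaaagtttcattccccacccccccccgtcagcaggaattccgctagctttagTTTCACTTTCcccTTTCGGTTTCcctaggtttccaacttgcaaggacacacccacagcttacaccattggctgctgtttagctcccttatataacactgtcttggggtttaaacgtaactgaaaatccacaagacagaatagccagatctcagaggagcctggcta
IFIT3 (chr10:89327747-89328046, plus strand): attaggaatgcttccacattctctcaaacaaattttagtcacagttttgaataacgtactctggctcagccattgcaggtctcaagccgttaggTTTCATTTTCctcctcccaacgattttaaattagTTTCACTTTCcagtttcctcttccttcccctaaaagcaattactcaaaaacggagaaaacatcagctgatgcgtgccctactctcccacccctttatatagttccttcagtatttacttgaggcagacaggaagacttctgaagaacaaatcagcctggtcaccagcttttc
IFIT5 (chr10:89414318-89414617, plus strand): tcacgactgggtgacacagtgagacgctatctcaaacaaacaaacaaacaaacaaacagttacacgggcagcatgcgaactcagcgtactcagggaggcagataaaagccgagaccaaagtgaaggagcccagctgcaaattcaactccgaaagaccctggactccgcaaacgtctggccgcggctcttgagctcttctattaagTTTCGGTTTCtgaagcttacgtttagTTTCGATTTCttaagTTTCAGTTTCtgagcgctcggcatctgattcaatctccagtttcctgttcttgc
TAP1 (chr6:32853655-32853954, minus strand): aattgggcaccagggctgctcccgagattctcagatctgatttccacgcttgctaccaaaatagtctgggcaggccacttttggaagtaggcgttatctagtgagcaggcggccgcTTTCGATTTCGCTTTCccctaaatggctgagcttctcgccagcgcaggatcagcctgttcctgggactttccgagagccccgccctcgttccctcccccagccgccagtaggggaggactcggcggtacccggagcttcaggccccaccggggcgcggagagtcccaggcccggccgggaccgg
PSMB9 (chr6:32853942-32854241, plus strand): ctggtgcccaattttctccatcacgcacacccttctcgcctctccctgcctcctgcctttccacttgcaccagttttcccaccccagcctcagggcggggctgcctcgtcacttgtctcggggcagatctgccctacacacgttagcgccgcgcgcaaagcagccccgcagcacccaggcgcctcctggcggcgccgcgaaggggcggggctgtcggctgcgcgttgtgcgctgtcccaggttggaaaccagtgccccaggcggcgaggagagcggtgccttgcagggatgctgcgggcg
DTX3L (chr3:122564088-122564387, plus strand): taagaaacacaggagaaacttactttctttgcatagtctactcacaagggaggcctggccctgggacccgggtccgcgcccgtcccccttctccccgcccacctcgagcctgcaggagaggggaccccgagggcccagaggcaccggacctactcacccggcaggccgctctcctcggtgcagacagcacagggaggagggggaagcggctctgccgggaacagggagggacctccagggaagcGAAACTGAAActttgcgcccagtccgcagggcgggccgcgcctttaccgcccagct
IFIT1 held the ISRE core from bases -116 and -103, counted from the start, and IFIT3 from -156 and -122. In IFIT5 it began at -45, -19 and -4, the last match running across the start. TAP1 and PSMB9 are transcribed away from each other, and their windows overlap by 13 bases. TAP1 held an overlapping pair of matches, from -134 and -128, and PSMB9 held none in its window. TAP1 and IFIT3 each have another RefSeq window, not shown here. That of TAP1 held a GAS from -189 and no ISRE core, and that of IFIT3 held the ISRE core from -94 and -51. The DTX3L match began at -6.

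RefSeq windows were matched for 29 of the 34 members (DDX58 under its newer symbol RIGI), and the 5 without one were IFIT2, OASL, IRF7, HLA-E and OAS2. The ISRE core was in at least 1 window of 20 of the 29 (69.0%), against 4.38% of the 27305 genes in the promoter table. Of these 20, 9 held 1 match in the window with most, 8 held 2 and 3 held 3 (IFIT5, IFI6 and IFIH1). The match of PARP9 and that of DTX3L are the same bases, read from opposite strands and counted for both genes. The GAS was in 9 of 29 (31.0%, against 9.38%), among them IRF1, IRF9, PARP14 and PSMB8, and matches overlapped each other in 6 members. The full receptor element (AGAACA, any 3 bases and TGTTCT) was in none of the 29 and in 0.00366% of all genes. Its inner form (ACA, any 3 bases and TGT), which the full element contains, was in MX1 alone (3.45%, against 6.54%). Neither the ISRE core nor the GAS was found in the windows of STAT2, DDX58, PSMB9, HLA-B and HLA-C. A match is an exact string of letters and was not tested for binding. Elements that differ from the string in a base or in spacing were not counted. The DDX58 window, for example, holds GAAACGAAA, with 1 base between in place of 2. A window without a match is thus not shown to lack an element.

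Levels between genes were compared per length, as RPKM (CPM divided by transcript length in kilobases). In siNON vehicle the highest members were the class I light chain B2M (207.0 ± 20.8 RPKM, SD, n = 4) and the heavy chains HLA-C (188.0 ± 18.1) and HLA-B (86.4 ± 7.2). HLA-E, a class I molecule that presents leader peptides, followed at 27.8 ± 1.8 RPKM, the transporter subunits TAP2 and TAP1 at 18.9 ± 0.66 and 14.9 ± 1.04, and IFI6 at 13.6 ± 1.64. The ranges of mean ± SD of B2M and HLA-C overlapped. The lowest of the tested members were IFIT3 at 0.211 ± 0.0406 RPKM, IFIT2 at 0.134 ± 0.058 and IFI44L at 0.1 ± 0.0219. The median of the 31 tested members was 3.05 RPKM against 6.38 RPKM over all tested genes, and 11 of the 34 exceeded that overall median.

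IFI44, OAS1 and OAS2 had the fewest reads. OAS1 had 3 and 3 reads in all in the siNON groups (vehicle, then dex) and 4 and 4 in the siBCOR groups, and OAS2 had 3, 2, 3 and 2. IFI44 had 9, 11, 23 and 20 reads, again in that order. The filter on low counts removed these 3, so they have no test with it. Among the interferons themselves, IFNG had 0 reads over all 16 libraries, IFNB1 1, IFNA1 2 and IFNL1 8.

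**Figure D1:**
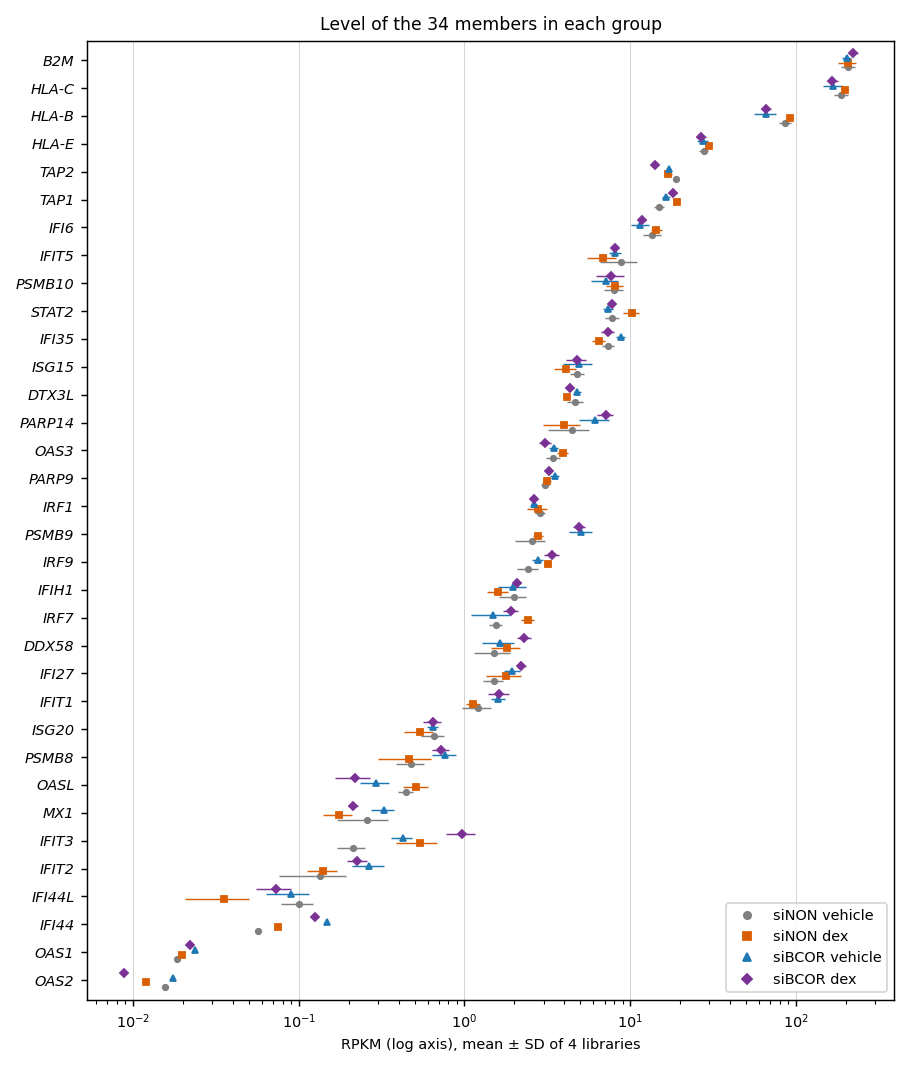
Mean RPKM on a log axis for each of the 34 members in the 4 groups, ordered by siNON vehicle. Bars are the SD of 4 libraries, left out for IFI44, OAS1 and OAS2, which had too few reads to test. B2M and HLA-C lie highest, and the IFIT genes other than IFIT5 lie near or below 1 RPKM.

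Depletion of BCOR was compared first, against siNON cells under the same treatment. Here and below, depletion means siBCOR against siNON. No other siRNA against BCOR is labelled, so loss of BCOR and other effects of the siBCOR pool cannot be told apart. In vehicle, 6 of the 31 tested members (19.4%) passed the test, against 17.1% of all genes tested. IFIT1, IFIT2, IFIT3, PSMB8 and PSMB9 rose (8.87% of all genes rose), and HLA-B fell (8.23% of all genes fell). In dex 14 of 31 (45.2%) passed, against 39.5% of all genes. IFIT1, IFIT3, IFI44L, IFIH1, PARP14, PSMB8 and PSMB9 rose, beside 20.7% of all genes, and IFI6, OAS3, OASL, STAT2, TAP2, HLA-B and HLA-C fell, beside 18.8%. The share of members called is near the share of all genes in both, and the members moved in both directions. The median log2 fold change was 0.005 over the members and 0.025 over all genes in vehicle, and 0.112 and 0.025 in dex. The libraries of the groups compared did not overlap for 8 of 31 members in vehicle, against 18.0% of all genes. In dex they did not overlap for 15 of 31, against 34.2% of all genes.

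Dexamethasone was compared with vehicle within each kind of cell. In siNON cells 7 of 31 members (22.6%) passed, against 19.4% of all genes: IFIT3, IRF7, IRF9, STAT2 and TAP1 rose (10.7% of all genes), and IFI44L and TAP2 fell (8.64%). In siBCOR cells 4 of 31 (12.9%) passed, against 23.0% of all genes: IFIT3 and DDX58 rose (10.5%), and IFI35 and TAP2 fell (12.5%). Median log2 fold changes of the members were 0.049 in siNON and -0.003 in siBCOR cells, against -0.004 and 0.003 over all genes. The libraries with dex and with vehicle did not overlap for 6 of 31 members in siNON cells, against 19.9% of all genes. In siBCOR cells they did not overlap for 5 of 31, against 30.7% of all genes. Across the 4 comparisons 20 members passed at least once, and IFIT5, IFI27, ISG15, ISG20, MX1, IRF1, PARP9, DTX3L, PSMB10, B2M and HLA-E did not.

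The libraries that stand apart touch these counts. In both of them IFIT1, IFIT5, IFI27, IRF9, DDX58, PARP14 and B2M were the highest of their group. IFI6, OAS3, IRF1, STAT2, PSMB8, PSMB9, TAP1, TAP2, HLA-B, HLA-C and HLA-E were the lowest of theirs. In siNON vehicle 3, 9 of the 31 tested members were highest and 15 lowest, beside 35.4% and 35.0% of all genes. In siNON dex 4 these counts were 11 and 13, beside 38.4% and 38.8% of all genes. Without siNON dex 4 and siNON vehicle 3, BCOR depletion called 9 members in vehicle (5 higher and 4 lower, with 24.3% of all genes called). It then called 17 in dex (8 higher and 9 lower, with 53.8% of all genes called). Dex then called 8 members in siNON cells (20.7% of all genes) and 6 in siBCOR cells (34.2%). With upper-quartile scaling the 14 members called after depletion in dex were 5 higher and 9 lower, in place of 7 and 7.

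**Figure D2:**
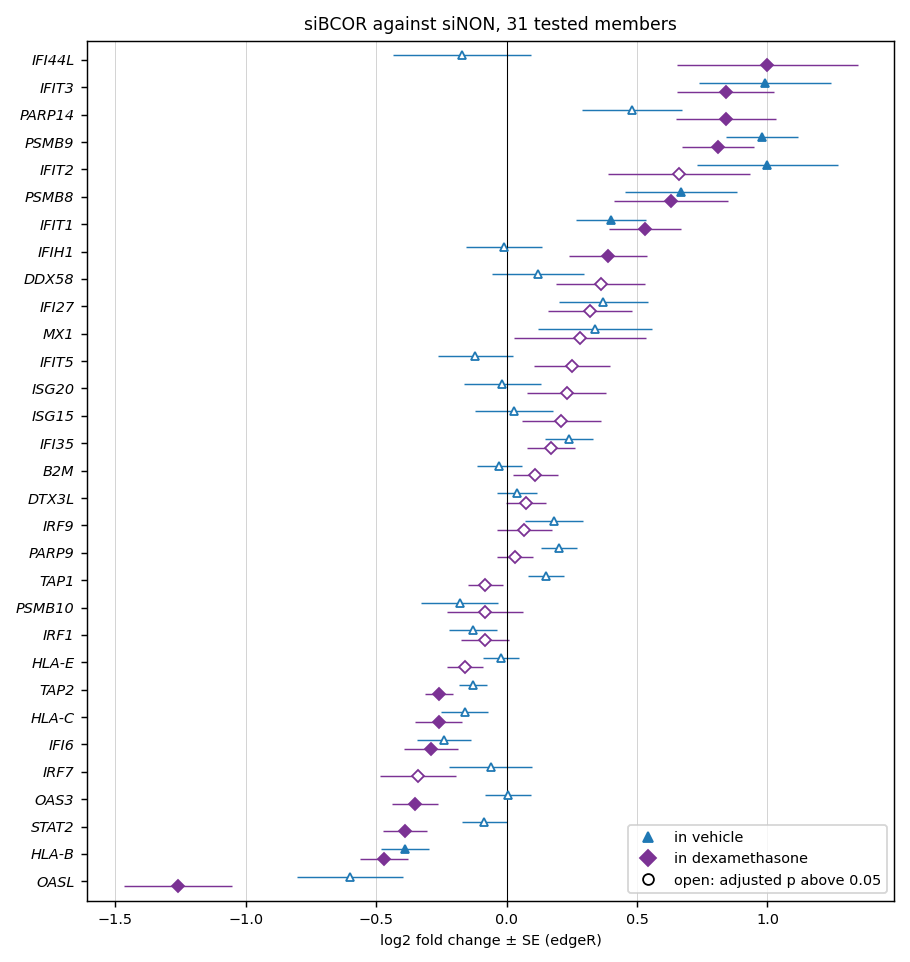
Log2 fold change ± SE of siBCOR against siNON for the 31 tested members, in vehicle (triangles) and in dexamethasone (diamonds), ordered by the value in dex. Filled symbols passed an adjusted p of 0.05 and open ones did not. IFIT3 and PSMB9 lie between 0.81 and 0.99 under both treatments, and OASL lies lowest at -0.60 and -1.26.

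The IFIT genes encode proteins that bind viral RNA, and IFIT1, IFIT2, IFIT3 and IFIT5 lie in 1 cluster on chromosome 10 (hg19). In replicates 1 to 4 of siNON vehicle, IFIT3 gave 0.637, 0.58, 0.635 and 0.406 CPM, while the dex libraries of the same cells gave 0.895, 1.51, 1.49 and 1.85 CPM. For siBCOR cells the vehicle libraries gave 1.03, 1.06, 1.38 and 1.07 CPM, and those with dex 2.46, 2.29, 2.24 and 3.34 CPM. The hormone and the depletion each separated the libraries without overlap, and the highest values came where both were given. IFIT3 rose 1.98-fold with depletion in vehicle (log2 fold change 0.99 ± 0.253 SE, adjusted p = 0.0131) and 1.79-fold in dex (0.84 ± 0.185, adjusted p = 0.00275). With dex it rose 2.49-fold in siNON cells (1.32 ± 0.243, adjusted p = 0.000648) and 2.26-fold in siBCOR cells (1.18 ± 0.192, adjusted p = 0.000206). It was the one member called in all 4 comparisons, although it rests on 517 reads over the 16 libraries.

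IFIT2 stood at 0.199, 0.677, 0.55 and 0.451 CPM in siNON vehicle, against 0.71, 0.82, 1.14 and 1.07 CPM in siBCOR vehicle. All siBCOR libraries lay above all siNON libraries, and the gene rose 2.0-fold (log2 fold change 1.0 ± 0.269, adjusted p = 0.0171). In dex the values were 0.627, 0.432, 0.511 and 0.392 CPM in siNON and 0.758, 0.776, 0.685 and 0.939 CPM in siBCOR cells, also without overlap. The difference in dex, 0.66 ± 0.272, did not pass (adjusted p = 0.0636). The rise in vehicle was no longer called without siBCOR vehicle 3 or without siNON vehicle 1, and the gene had 241 reads in all.

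IFIT1 stood at 4.78, 5.22, 7.02 and 4.74 CPM in siNON vehicle, against 7.77, 6.12, 7.52 and 7.38 CPM in siBCOR vehicle. These groups overlapped through siNON vehicle 3, and the rise of 0.4 ± 0.135 (log2, adjusted p = 0.0494) was kept in 6 of 25 alternative analyses. It was lost without siBCOR vehicle 1, 3 or 4, or siBCOR dex 1, 2 or 4. The same held without siNON vehicle 1, 2 or 4, or siNON dex 1, 2 or 3. RLE or upper-quartile scaling, no filter, the longest transcript, a replicate block, only the 2 groups and the 0.01 threshold lost it too. In dex, 4.79, 5.06, 4.64 and 5.72 CPM in siNON cells stood against 6.63, 8.19, 6.12 and 8.19 CPM in siBCOR cells. There the groups were apart, and the rise of 0.53 ± 0.137 (1.45-fold, adjusted p = 0.00719) was kept in all 25. Dex against vehicle gave -0.11 in siNON and 0.01 in siBCOR cells for IFIT1, neither of them called.

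IFIT5, with 3 ISRE cores in its promoter, was the most abundant of the family at 8.8 RPKM in siNON vehicle. Its values were 29.0, 32.6, 48.5 and 31.8 CPM in siNON vehicle, 25.9, 24.6, 24.1 and 35.8 CPM in siNON dex, 29.1 to 35.5 CPM in siBCOR vehicle and 31.1 to 33.9 CPM in siBCOR dex. The highest library of each siNON group was 1 of the 2 that stand apart. With all libraries IFIT5 passed in no comparison. Leaving out siNON dex 4 and siNON vehicle 3 made it lower with dex in siNON cells (-0.33, adjusted p = 0.00485) and higher with depletion in dex (0.36, adjusted p = 0.000566).

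**Figure D3:**
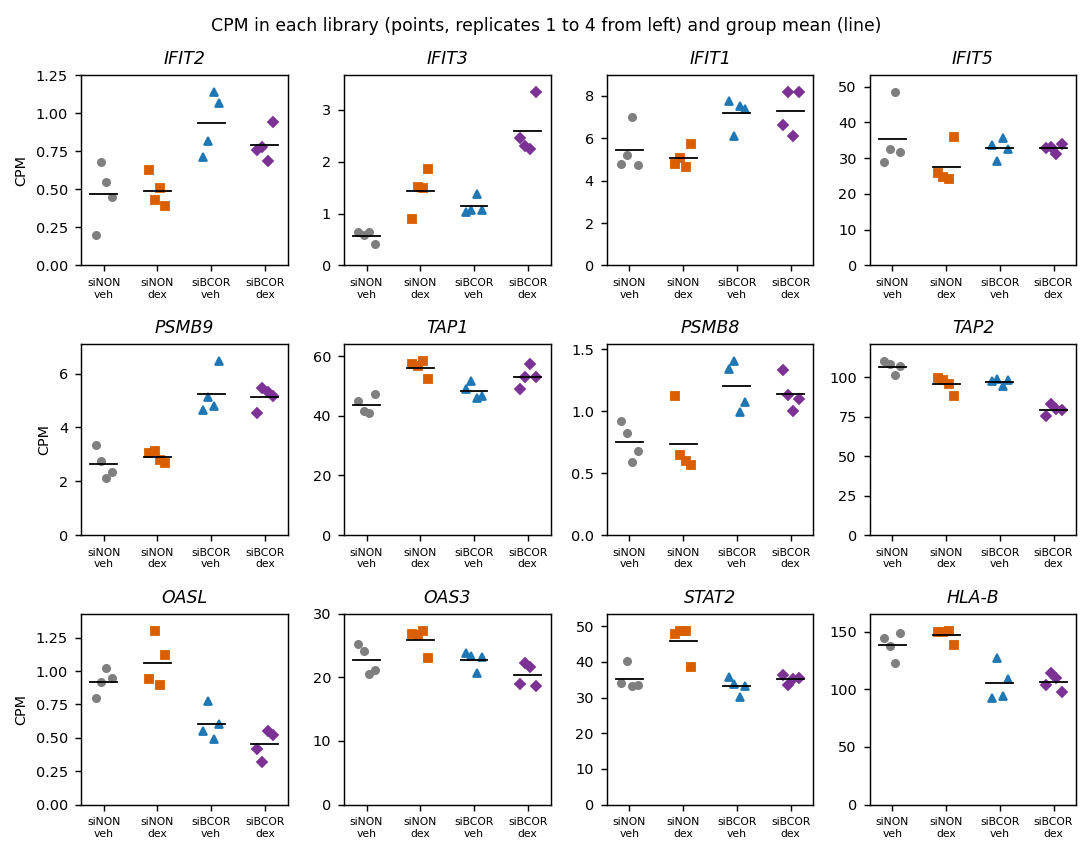
CPM in every library for 12 members, on axes that start at 0, with replicates 1 to 4 from left to right in each group and a line at the group mean. IFIT3 steps up with the hormone and with the depletion, PSMB9 is higher in all 8 siBCOR libraries, and TAP2 is lowest in siBCOR dex.

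Among other interferon-stimulated genes, IFI44L, which encodes a feedback regulator of antiviral responses, stood at 0.717, 0.677, 0.508 and 0.451 CPM in siNON vehicle. In siNON dex it was at 0.0895, 0.216, 0.298 and 0.224 CPM, below all vehicle libraries. It fell by 1.48 ± 0.325 on the log2 scale with dex in siNON cells (2.79-fold, adjusted p = 0.00294). In siBCOR cells the vehicle libraries were at 0.513, 0.386, 0.742 and 0.464 CPM and the dex libraries at 0.303, 0.388, 0.502 and 0.522 CPM. These overlapped, and the change of -0.32 did not pass. In dex, siBCOR was above siNON in every library (log2 1.0 ± 0.346, adjusted p = 0.0323). That call was kept in 17 of 24 alternatives, and IFI44L had 158 reads in all. DESeq2, no filter on low counts and a threshold of 0.01 each lost the call. Leaving out siBCOR dex 3, siBCOR dex 4, siNON dex 1 or siNON dex 2 lost it too.

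IFI6 encodes a mitochondrial protein that limits apoptosis. It stood at 13.4, 12.6, 12.1 and 11.2 CPM in siNON dex, against 10.3, 10.3, 9.27 and 10.4 CPM in siBCOR dex. The groups did not overlap, and it was 1.22-fold lower (-0.29 ± 0.103, adjusted p = 0.0352). This call was lost when any 1 siBCOR dex library was left out, or siNON dex 1, 2 or 3. In vehicle it stood at 9.6 to 12.6 CPM in siNON and at 8.17 to 11.0 CPM in siBCOR cells, which overlapped. Its difference of -0.24 did not pass, but reached -0.38 (adjusted p = 0.0113) without siNON dex 4 and siNON vehicle 3.

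IFI35, a partner of NMI, was at 11.3, 11.4, 10.3 and 10.2 CPM in siBCOR vehicle, against 7.96, 9.67, 8.77 and 9.65 CPM in siBCOR dex. All dex libraries were lower, by 0.26 ± 0.0912 on the log2 scale (adjusted p = 0.0472), and 11 of 25 alternatives kept the call. It was lost without any 1 of the siBCOR vehicle libraries, or siBCOR dex 1, 3 or 4. The same held without siNON vehicle 1, 2 or 4, or siNON dex 1. No filter, a replicate block and the 0.01 threshold lost it too. In siNON cells its change with dex was -0.19 and was not called.

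OASL, a relative of the 2′-5′ oligoadenylate synthetases that enhances RIG-I signalling, had the largest decrease of any member after depletion. It stood at 0.94, 1.3, 0.894 and 1.12 CPM in siNON dex, against 0.417, 0.318, 0.548 and 0.522 CPM in siBCOR dex. All siBCOR libraries were lower, 2.39-fold (-1.26 ± 0.208, adjusted p = 0.000354), in all 25 alternatives. In vehicle, 0.796, 0.919, 1.02 and 0.948 CPM stood against 0.552, 0.772, 0.494 and 0.603 CPM. There too the groups were apart, and the difference of -0.60 ± 0.202 did not pass (adjusted p = 0.0742). OASL rests on 271 reads.

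OAS3 makes 2′-5′ oligoadenylates in response to double-stranded RNA. It was at 26.8, 26.6, 27.3 and 23.0 CPM in siNON dex, against 18.9, 22.2, 21.6 and 18.7 CPM in siBCOR dex. It was lower without overlap (-0.35 ± 0.0882, adjusted p = 0.0065), in all 25 alternatives. In vehicle it stood at 20.6 to 25.2 CPM in siNON and at 20.7 to 23.9 CPM in siBCOR cells, with a log2 difference of 0.00.

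ISG15, ISG20, IFI27 and MX1 passed in no comparison with all libraries. ISG15, a ubiquitin-like modifier, had group means of 2.7 to 3.23 CPM and ISG20, an RNA exonuclease, of 1.99 to 2.4 CPM. IFI27 had means of 1.04 CPM in siNON vehicle and 1.53 CPM in siBCOR dex, and its libraries overlapped in each comparison. MX1, a dynamin-like antiviral GTPase, stood at 0.986, 1.21, 0.94 and 1.3 CPM in siBCOR vehicle, against 0.796, 0.741, 0.685 and 0.678 CPM in siBCOR dex. All dex libraries were lower, and the change of -0.59 ± 0.224 did not pass (adjusted p = 0.0641). It did without siNON dex 4 and siNON vehicle 3 (adjusted p = 0.0299) and without siNON vehicle 3 alone (adjusted p = 0.0369). Neither library is in this comparison, and the log2 value of MX1 stayed at -0.59. In siNON cells its change with dex was -0.54 (adjusted p = 0.149), and it was called without both (-0.74, adjusted p = 0.0391) and without siNON vehicle 3 (-0.77, adjusted p = 0.0229).

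STAT2, a subunit of ISGF3, stood at 34.0, 40.3, 33.3 and 33.6 CPM in siNON vehicle, against 47.8, 48.7, 48.7 and 38.5 CPM in siNON dex. Of the dex libraries 3 lay above all vehicle libraries, and siNON dex 4 lay below siNON vehicle 2. STAT2 rose by 0.38 ± 0.0855 (log2, adjusted p = 0.00346). In siBCOR cells, 35.7, 33.8, 30.2 and 33.3 CPM in vehicle overlapped 36.4, 33.4, 35.3 and 35.5 CPM in dex, and 0.08 was not called. In dex, STAT2 was 1.31-fold lower in siBCOR than in siNON cells, without overlap (-0.39 ± 0.0854, adjusted p = 0.00285). Both calls were kept in all 25 alternatives.

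IRF7 is the regulator that amplifies type I interferon production. It stood at 3.22, 3.29, 2.71 and 3.34 CPM in siNON vehicle, against 4.39, 5.4, 4.98 and 4.88 CPM in siNON dex. The groups were apart, and IRF7 rose 1.57-fold with dex (0.65 ± 0.15, adjusted p = 0.00446). In siBCOR cells 2.01, 3.95, 3.12 and 3.06 CPM in vehicle overlapped 3.52, 3.6, 4.25 and 4.23 CPM in dex. The change of 0.37 ± 0.154 there did not pass (adjusted p = 0.097). Depletion in dex gave -0.34 for IRF7 (adjusted p = 0.0693), which was called without siNON vehicle 3 (-0.37, adjusted p = 0.0484) and without it and siNON dex 4 (-0.39, adjusted p = 0.0449).

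IRF9, the DNA-binding subunit of ISGF3, was at 3.98, 3.72, 4.91 and 3.57 CPM in siNON vehicle, against 5.19, 5.32, 5.24 and 5.55 CPM in siNON dex. It rose 1.31-fold without overlap (0.39 ± 0.109, adjusted p = 0.0165), a call lost without siNON vehicle 2 or siNON vehicle 4. In siBCOR cells, 4.77, 4.87, 4.7 and 4.08 CPM in vehicle stood against 5.42, 4.87, 6.07 and 6.05 CPM in dex. That change of 0.28 ± 0.107 did not pass (adjusted p = 0.0729). It passed without siNON vehicle 3 (adjusted p = 0.0397) and without that library and siNON dex 4 (adjusted p = 0.0368). These libraries are not in that comparison, and the value stayed at 0.28. IRF1, an activator with a GAS in its promoter, had means of 9.29 to 10.2 CPM in the 4 groups and passed in none.

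Of 19 further tested genes for interferons, their receptors and signalling, 9 rose and 0 fell with dex in siNON cells, and 8 rose and 1 fell in siBCOR cells. Of all genes 10.7% rose and 8.64% fell in siNON cells, and 10.5% and 12.5% in siBCOR cells. JAK1 went from 110.7 ± 7.24 to 289.4 ± 5.45 CPM in siNON cells (SD, n = 4) and from 133.0 ± 10.4 to 312.8 ± 4.11 CPM in siBCOR cells. STAT3 rose by 0.78 and 0.44 on the log2 scale. The feedback inhibitor SOCS1 rose by 1.87 in siBCOR cells, from 0.663 ± 0.0908 to 2.42 ± 0.884 CPM, and its means in siNON cells were 0.644 ± 0.194 CPM in vehicle and 2.09 ± 0.482 CPM in dex. With depletion 6 of the 19 rose and 0 fell in vehicle, and 4 rose and 2 fell in dex, beside 8.87% and 8.23% of all genes in vehicle and 20.7% and 18.8% in dex. IRF2 rose by 0.5 and 0.34. USP18, which removes ISG15 from proteins, fell by 0.29 with depletion in dex. The median log2 fold change of the 19 was 0.247 and 0.185 with dex (-0.004 and 0.003 over all genes), and 0.035 and 0.113 with depletion (0.025 over all genes in each).

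**Figure D4:**
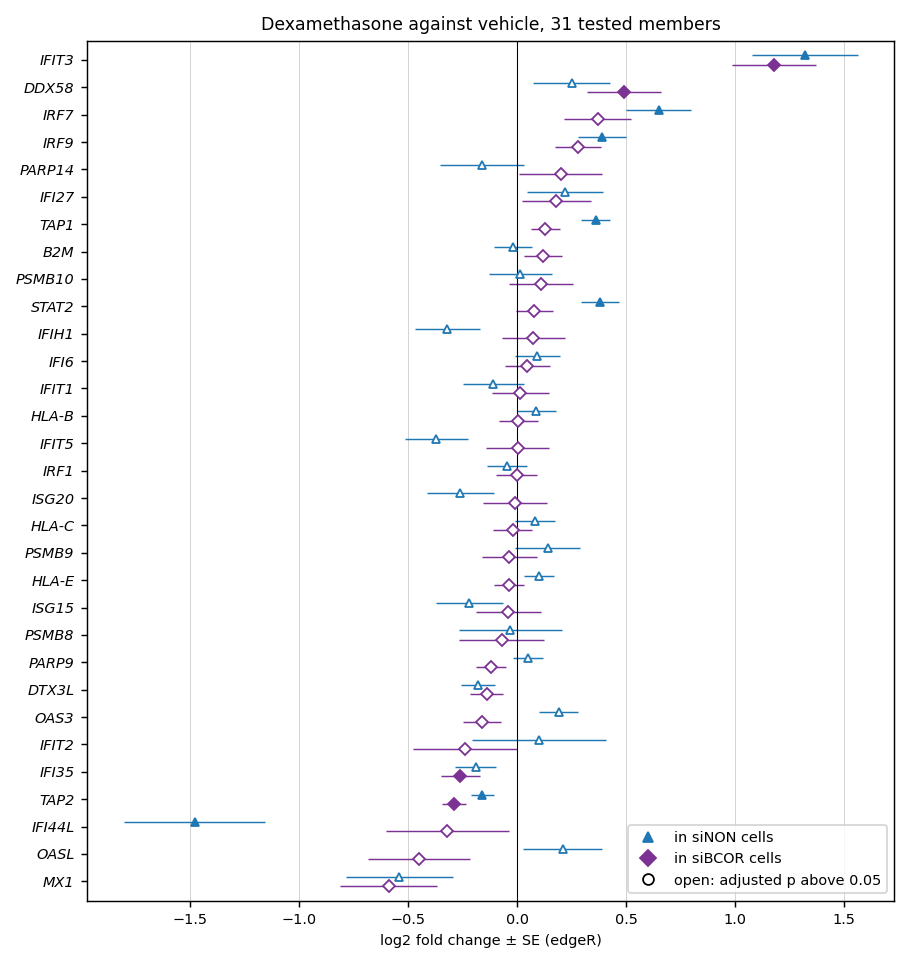
Log2 fold change ± SE of dexamethasone against vehicle for the 31 tested members, in siNON cells (triangles) and siBCOR cells (diamonds), ordered by the value in siBCOR cells. Filled symbols passed an adjusted p of 0.05. IFIT3 stands above 1 in both, and IFI44L is at -1.48 in siNON and at -0.32 in siBCOR cells.

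DDX58 (RIG-I) and IFIH1 (MDA5) are cytosolic helicases that sense viral RNA. DDX58 was at 7.89, 5.69, 9.69 and 7.66 CPM in siBCOR vehicle, against 11.2, 9.35, 11.8 and 11.2 CPM in siBCOR dex. These overlapped through siBCOR vehicle 3, and DDX58 rose by 0.49 ± 0.171 (log2, adjusted p = 0.0468), in 14 of 25 alternatives. The call was lost without siBCOR vehicle 1, 2 or 4, siBCOR dex 1, 3 or 4, siNON vehicle 2 or 4, or siNON dex 1 or 3. Depletion in dex gave 0.36 for DDX58 (adjusted p = 0.103), which was called without siNON dex 4 (0.49, adjusted p = 0.0238) and without it and siNON vehicle 3 (0.45, adjusted p = 0.00803). IFIH1 was at 5.37, 5.14, 5.41 and 6.95 CPM in siNON dex, against 7.12, 7.69, 7.08 and 7.88 CPM in siBCOR dex. It was higher without overlap (0.39 ± 0.149, adjusted p = 0.0479), in 11 of 25 alternatives. That call was lost without siBCOR vehicle 1 or 4, any 1 siBCOR dex library, siNON vehicle 4, or siNON dex 1, 2 or 3. Upper-quartile scaling, no filter, a replicate block and the 0.01 threshold also lost it.

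Among 15 other tested sensors and adaptors, 1 rose and 1 fell with dex in siNON cells, and 1 rose and 3 fell in siBCOR cells (10.7% and 8.64%, and 10.5% and 12.5%, of all genes). With depletion 1 rose in vehicle (8.87% of all genes), and in dex 3 rose, among them EIF2AK2 by 0.54 and TBK1 by 0.61, and 1 fell, IRF3, by 0.19 on the log2 scale (20.7% and 18.8% of all genes).

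PARP14, PARP9 and DTX3L lie near each other on chromosome 3. PARP14 is an ADP-ribosyltransferase, and PARP9 forms a ubiquitin ligase pair with DTX3L. PARP14 stood at 27.8, 28.2, 24.4 and 41.9 CPM in siNON dex, against 53.9, 47.0, 55.9 and 61.8 CPM in siBCOR dex. All siBCOR libraries were higher, 1.79-fold (0.84 ± 0.192, adjusted p = 0.00359), in all 25 alternatives. In vehicle, 27.9, 33.3, 47.7 and 27.5 CPM overlapped 51.8, 33.9, 56.0 and 48.2 CPM, and 0.48 ± 0.191 did not pass (adjusted p = 0.0962). In vehicle the value was 0.63 and was called without siNON vehicle 3 (adjusted p = 0.0122) and without it and siNON dex 4 (adjusted p = 0.00216).

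PARP9 and DTX3L start within a few bases of each other on opposite strands, and their transcripts overlap at the starts, so reads could be shared. PARP9 had means of 20.7 and 21.4 CPM in siNON cells (vehicle, then dex) and 23.8 and 21.8 CPM in siBCOR cells. DTX3L had means of 26.9, 23.8, 27.7 and 25.1 CPM in the same order. Neither passed in any comparison. The nearest to it was PARP9 with depletion in vehicle, where the libraries did not overlap (0.20 ± 0.0688, adjusted p = 0.0514, and 0.0493 without siNON dex 4).

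PSMB8, PSMB9 and PSMB10 are the catalytic subunits that replace PSMB5, PSMB6 and PSMB7 in the immunoproteasome. PSMB9 stood at 3.34, 2.76, 2.12 and 2.35 CPM in siNON vehicle, against 4.65, 5.11, 4.8 and 6.45 CPM in siBCOR vehicle. In dex it was at 3.04, 3.11, 2.77 and 2.69 CPM in siNON and at 4.55, 5.47, 5.3 and 5.16 CPM in siBCOR cells. Every siBCOR library lay above every siNON library. PSMB9 rose 1.98-fold in vehicle (0.98 ± 0.139, adjusted p = 0.00017) and 1.76-fold in dex (0.81 ± 0.137, adjusted p = 0.000424), in all 25 alternatives of each.

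PSMB8 was at 0.916, 0.822, 0.592 and 0.677 CPM in siNON vehicle, against 1.34, 1.4, 0.989 and 1.07 CPM in siBCOR vehicle. These did not overlap, and it rose by 0.67 ± 0.215 (log2, adjusted p = 0.0398). In dex, 1.12, 0.648, 0.596 and 0.561 CPM overlapped 1.33, 1.13, 1.0 and 1.1 CPM through siNON dex 1, with a rise of 0.63 ± 0.217 (adjusted p = 0.0302). Of 25 alternatives 11 kept the first call and 14 the second. The first was lost without siBCOR vehicle 1, 2 or 4, siBCOR dex 2, or siNON vehicle 2, 3 or 4. The second was lost without siBCOR dex 1 or 2, or siNON dex 2, 3 or 4. Without siNON dex 4 and siNON vehicle 3 the values were 0.52 (adjusted p = 0.112) and 0.51 (adjusted p = 0.0739). PSMB8 had 349 reads, and the antisense gene PSMB8-AS1, which overlaps it and had 3394, could share reads with it.

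PSMB10, on chromosome 16, had means of 7.09 to 8.09 CPM and passed in no comparison. Of the 3 constitutive subunits, PSMB5 fell by 0.21 on the log2 scale with depletion in dex, and 0 passed in the other comparisons.

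TAP1 and TAP2 form the transporter that carries peptides into the endoplasmic reticulum. TAP1, whose promoter adjoins that of PSMB9, was at 45.0, 41.6, 40.8 and 47.4 CPM in siNON vehicle, against 57.3, 56.5, 58.2 and 52.2 CPM in siNON dex. It rose 1.28-fold without overlap (0.36 ± 0.0684, adjusted p = 0.000864), in all 25 alternatives. PSMB8-AS1 overlaps TAP1 too, which had 18204 reads, and could share reads with it. In siBCOR cells, 49.1, 51.7, 46.1 and 46.7 CPM in vehicle overlapped 49.0, 52.9, 57.2 and 52.9 CPM in dex, and 0.13 was not called. Depletion gave 0.15 in vehicle and -0.08 in dex for TAP1, neither of them called, beside 0.98 and 0.81 for PSMB9.

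TAP2 was at 110.2, 108.4, 101.5 and 107.4 CPM in siNON vehicle, 99.9, 98.3, 96.1 and 88.5 CPM in siNON dex, 97.6, 99.2, 94.5 and 98.4 CPM in siBCOR vehicle and 75.8, 83.0, 80.3 and 79.6 CPM in siBCOR dex. The siBCOR dex libraries were below all others. With dex it fell by 0.29 ± 0.0533 on the log2 scale in siBCOR cells (adjusted p = 0.000633). With depletion in dex it fell by 0.26 ± 0.0533 (adjusted p = 0.00156). Both were kept in all 25 alternatives. The fall of 0.16 ± 0.0532 with dex in siNON cells (adjusted p = 0.0448) was kept in 6 of 25, although the groups did not overlap. It was lost without siBCOR vehicle 1, 3 or 4, or siBCOR dex 2, 3 or 4. The same held without siNON vehicle 1, 2 or 4, or siNON dex 2, 3 or 4. RLE or upper-quartile scaling, no filter, a replicate block, only the 2 groups and the 0.01 threshold also lost it. So did leaving out both libraries that stand apart. Depletion in vehicle gave -0.13 for TAP2 (adjusted p = 0.0963), which was called without siNON vehicle 3 (-0.21, adjusted p = 0.0291) and without it and siNON dex 4 (-0.21, adjusted p = 0.00793).

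HLA-B and HLA-C encode class I heavy chains. HLA-B was at 144.7, 137.6, 122.3 and 148.4 CPM in siNON vehicle, against 92.4, 127.3, 94.3 and 109.2 CPM in siBCOR vehicle. These overlapped between siNON vehicle 3 and siBCOR vehicle 2, and HLA-B fell by 0.39 ± 0.0915 on the log2 scale (adjusted p = 0.00837). In dex, 149.5, 150.0, 150.5 and 137.9 CPM in siNON were all above 103.4, 114.4, 109.7 and 97.4 CPM in siBCOR cells, a fall of 0.47 ± 0.0914 (adjusted p = 0.00124). Each call was kept in all 25 alternatives.

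HLA-C was at 325.2, 316.6, 312.4 and 295.4 CPM in siNON dex, against 247.2, 281.1, 273.0 and 240.1 CPM in siBCOR dex. It was lower without overlap (-0.26 ± 0.0903, adjusted p = 0.0304), in 19 of 25 alternatives. The call was lost without siBCOR dex 1, siBCOR dex 4, siNON dex 1, siNON dex 2 or siNON dex 3. In vehicle it stood at 253.4 to 313.2 CPM in siNON and at 222.6 to 306.3 CPM in siBCOR cells, and -0.16 did not pass. The value was -0.28 and was called without siNON vehicle 3 (adjusted p = 0.0456) and without it and siNON dex 4 (adjusted p = 0.028). B2M, their light chain, had means of 203.1 and 200.6 CPM in siNON cells (vehicle, then dex) and 199.2 and 216.8 CPM in siBCOR cells. HLA-E had means of 73.8, 79.1, 72.7 and 70.9 CPM in the same order. Neither passed in any comparison. HLA-E fell by 0.22 with depletion in dex (adjusted p = 0.014) when siNON dex 4 and siNON vehicle 3 were left out.

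In a list of 23 other tested antigen presentation genes, 2 rose and 2 fell with depletion in vehicle (8.87% and 8.23% of all genes), and 2 rose and 7 fell in dex (20.7% and 18.8%). ERAP1, the aminopeptidase that trims peptides, rose by 0.57 and 0.56 on the log2 scale. The chaperones PDIA3 and CALR fell by 0.33 and 0.34 in dex, and PDIA3 also fell by 0.25 in vehicle. HLA-DMA fell by 0.77 in dex, and its value is uncertain, as the annotation gives it 8 copies. The activator of class I genes NLRC5 rose by 0.31 with depletion in vehicle, and fell by 0.53 with dex in siBCOR cells. With dex 2 of the 23 rose and 1 fell in siNON cells (10.7% and 8.64% of all genes), and 1 rose and 5 fell in siBCOR cells (10.5% and 12.5%). ERAP2 rose in both, by 0.96 and 1.06.

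Of 34 other tested interferon-stimulated genes, 8 rose and 2 fell with depletion in vehicle (8.87% and 8.23% of all genes), and 8 rose and 8 fell in dex (20.7% and 18.8%). The guanylate-binding protein GBP1 rose by 1.7 on the log2 scale in vehicle, from 0.237 ± 0.154 to 0.759 ± 0.0569 CPM (SD, n = 4). GBP1 rests on 178 reads over the 16 libraries. NMI rose by 0.51 in vehicle and 0.77 in dex. TRIM14 fell by 0.47 and IFI30 by 0.41 in dex. With dex 4 rose and 3 fell in siNON cells (10.7% and 8.64% of all genes), and 3 rose and 4 fell in siBCOR cells (10.5% and 12.5%). GBP5 rose by 2.13 in both kinds of cell, from 0.557 ± 0.189 to 2.5 ± 0.353 CPM in siNON and from 0.658 ± 0.162 to 2.89 ± 0.188 CPM in siBCOR cells. The median log2 fold change of the 34 was 0.214 with depletion in vehicle and 0.088 in dex, against 0.025 over all genes in each.

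Comparisons that share no library were set side by side. Depletion in vehicle and in dex had the same sign for 24 of 31 members (77.4%), against 68.4% of all genes. The members called in both were IFIT1, IFIT3, PSMB8, PSMB9 and HLA-B, each in the same direction, which is 83.3% of those called in vehicle and 35.7% of those called in dex (63.5% and 27.5% for all genes). Dex in siNON and in siBCOR cells had the same sign for 19 of 31 (61.3%, against 58.0%). IFIT3 and TAP2 were called in both, 28.6% of those called in siNON cells and 2 of the 4 called in siBCOR cells (60.1% and 50.4% for all genes).

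Whether depletion changed the hormone response was tested as the difference between the dex effects in siBCOR and siNON cells. In edgeR 0 of 31 members passed, against 0.0974% of all genes, and DESeq2 also called 0. At an unadjusted p under 0.05 there were 4 members, against 19.2% of all genes: OAS3 (-0.35 ± 0.125), IFI44L (1.16 ± 0.436), STAT2 (-0.30 ± 0.121) and TAP1 (-0.23 ± 0.0965). The smallest adjusted p, for OAS3, was 0.217. Thus the calls of STAT2, TAP1, IRF7, IRF9 and IFI44L with dex in siNON cells alone are not shown to differ from siBCOR cells. This depended on the libraries that stand apart. Without siNON dex 4, STAT2 and OAS3 were called lower (adjusted p = 0.0328 and 0.0387), with 15.3% of all genes called. Without that library and siNON vehicle 3, IFIT5 (0.34, adjusted p = 0.0441) and STAT2 (-0.34, adjusted p = 0.0455) were called, with 10.8% of all genes.

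The authors' lists of BCOR binding sites hold 267 peaks enriched in vehicle, 3055 enriched in dex and 8587 found in both, with positions on hg19 and no height. A peak centre lay within 1 kb of the start of 11 of 34 members (32.4%), against 19.4% of all genes tested, within 10 kb of 15 (44.1%, against 30.4%), within 50 kb of 22 (64.7%, against 54.2%) and within 100 kb of 27 (79.4%, against 69.4%). Counted over the 31 tested members alone, as the shares of all genes are, these were 11, 15, 20 and 25. The 11 within 1 kb were DDX58, DTX3L, PARP9, HLA-E, IFI35, IFIT5, IRF1, ISG20, OAS3, OASL and TAP2. They stand for 10 peaks, since PARP9 and DTX3L share 1. A vehicle-enriched peak was within 50 kb of 0 members (2.74% of all genes), and a dex-enriched one of 3 (8.82%, against 13.5%).

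The dex-enriched peak between PARP9 and DTX3L (hg19 chr3:122283207-122283541) was centred 189 bases downstream of the DTX3L start, inside that gene, and 180 bases upstream of the PARP9 start. The other dex-enriched peak lay 31.1 kb downstream of the IRF1 start, beyond that gene. Beside it, IRF1 had shared peaks at 247 bases, 5.8 kb and 17.4 kb. The shared peak at OASL (chr12:121476887-121477205) was centred 1 base from the start. That at TAP2 (chr6:32806490-32806824) was 57 bases upstream of its start, and the one at OAS3 (chr12:113376838-113377216) was 789 bases downstream, inside the gene.

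Neighbouring members were assigned the same peaks. The TAP2 peak was also the peak within 50 kb of PSMB8 (6.1 kb), TAP1 (15.1 kb) and PSMB9 (15.3 kb). The peak 433 bases into IFIT5 (chr10:91174599-91174917) was also that of IFIT1, 22.5 kb away, and OAS1 and OAS2 were assigned the OAS3 peak. Some peaks within 50 kb of a member lay nearer to the start of a gene outside the set. The ISG15 peak was 889 bases from the start of AGRN. Those of IRF9 were 242 and 425 bases from the starts of IPO4 and DCAF11. Both IFI27 peaks lay nearest to the start of IFI27L2. No listed peak was centred within 50 kb of IFIT2, IFIT3, IFI44, IFI44L, MX1, IRF7, STAT2, IFIH1, PARP14, PSMB10, B2M or HLA-C.

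Of the 7 members that rose with depletion in dex, 0 had a peak within 1 kb of the start, and of the 7 that fell 3 did (OAS3, OASL and TAP2). Of the 17 not called, 8 had one. Over all genes these shares were 19.4% of those that rose, 22.5% of those that fell and 18.4% of the rest. In vehicle the 5 members that rose and the 1 that fell had none, beside 20.9% and 22.6% of all genes that rose and fell. Of the 25 members not called in vehicle 11 had one, beside 18.9% of all genes not called. The ChIP libraries come from cells after 1 h and the RNA from cells after 6 h of treatment, and peaks have no value per library, so no test across libraries was possible.

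**Figure D5:**
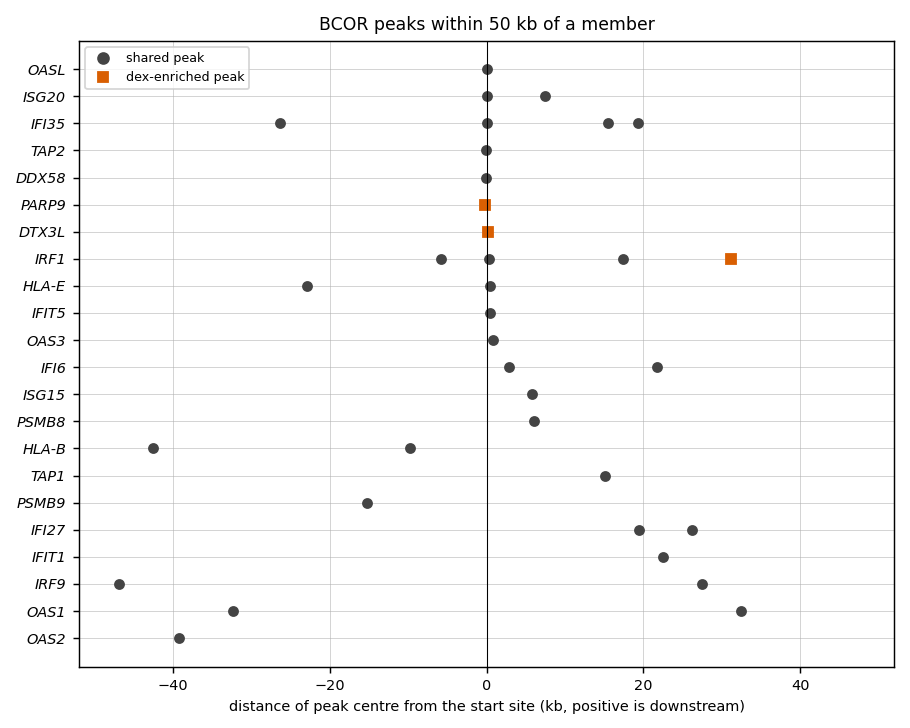
Distance of each BCOR peak centre from the start of the 22 members with a peak within 50 kb, in kb, positive in the direction of transcription. Circles are shared peaks and squares dex-enriched peaks. Of these members 11 have a peak within 1 kb, and PARP9 and DTX3L share a dex-enriched one.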

How the data were processed

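Poly(A) RNA of 16 libraries was counted over the exons of RefSeq transcripts. Per the file headers, the authors made raw read counts with HOMER on hg19, with no adjustment for depth, and which strand was counted is not stated. Bowtie 0.12.9, HOMER 4.10.3, bedtools, TopHat2, Trimmomatic and FastQC are named in the submitters' processing notes. Every peak has a score of 0 in the lists the authors deposited, so only positions were used, and how peaks were called and put into classes is not given in the sources used here. The lists are merged over libraries, so replicates of BCOR binding could not be compared.

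Isoforms of a gene share reads, so the transcript with the most reads stood for each symbol, and 134 transcripts without a symbol (0.0664% of reads) were left out. Counts over the chosen transcripts came to 18580291 to 28054809 per library. Low genes were removed with edgeR's default filter. The 4 group means were fitted in edgeR 4.0.16 (R 4.3.3) with TMM scaling and two-sided quasi-likelihood F tests. In this fit all groups share the estimate of spread, so leaving out a library can change calls in comparisons that do not hold it. Adjusted p values are Benjamini-Hochberg over all 16432 genes, called at 0.05, never over the members alone. CPM is edgeR's read count per TMM-scaled library size, and RPKM divides it by transcript length in kilobases. Log2 fold changes use edgeR's prior count of 0.125. Group fold values are the fitted ones. Peak distance runs from the start to the peak centre. The procedure was tested on simulated data, with the same spread for all genes and changes placed only in genes above a minimum read count. That test does not cover members with few reads.

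Alternatives were another threshold, RLE and upper-quartile scaling, DESeq2 1.42.0, no filter, the longest transcript, a fit of the 2 groups compared, a replicate block, leaving out each library, and leaving out both libraries that stand apart, which makes 25 for each member and comparison (24 for IFI44L with depletion in dex, where the filter on the 2 groups removed it). Every member called in any comparison is named with its value in each library of the groups compared. The pathway lists name up to 4 called genes each by smallest adjusted p, and some that it selects are not reported here. The members, lists and alternatives were chosen with earlier results of these data known.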

Additional observations from a re-analysis of the deposited data

Results flagged for a closer look

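In groups of 4 libraries, 11 of 124 group values had 1 library further from the rest than Dixon's 95% critical value for the gap over the range allows, and chance alone gives about 1 in 20. In siNON dex 4 there were 5 of them. IFIT5 was at 35.8 CPM against 24.1 to 25.9 in the other 3 libraries, and IFIH1 at 6.95 against 5.14 to 5.41. OAS3 was at 23.0 CPM against 26.6 to 27.3, STAT2 at 38.5 against 47.8 to 48.7, and HLA-B at 137.9 against 149.5 to 150.5. The same library stood apart over all genes.

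The other 6 lay in 6 libraries. STAT2 was at 40.3 CPM in siNON vehicle 2 against 33.3 to 34.0. PSMB8 was at 1.12 CPM in siNON dex 1 against 0.561 to 0.648. IFIT3 was at 1.38 CPM in siBCOR vehicle 3 against 1.03 to 1.07, and PSMB10 at 9.02 CPM in siBCOR vehicle 2 against 6.27 to 6.63. ISG15 was at 2.5 CPM in siBCOR dex 1 against 3.28 to 3.43, and IFI6 at 9.27 CPM in siBCOR dex 3 against 10.3 to 10.4.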

How the results depend on the processing

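Of 31 called values of single members, 18 were called in all alternatives run, none changed sign, and 643 of 774 repeats passed. At an adjusted p of 0.01 the members called were 2 for dex in siBCOR cells, 2 for depletion in vehicle and 9 for depletion in dex. A fit of only the 2 groups called 3 members for depletion in vehicle (1528 of all genes, against 2810). Leaving out 1 library gave 5 to 8 members for dex in siNON cells, 2 to 6 for dex in siBCOR cells, 4 to 9 for depletion in vehicle, 9 to 16 for depletion in dex and 0 to 2 for the interaction. The count for dex in siBCOR cells fell to 2 without siBCOR vehicle 1 or 4, siBCOR dex 1, 3 or 4, siNON vehicle 2 or 4, or siNON dex 1. The count for depletion in dex fell to 9 without siNON dex 2, and the interaction reached 2 without siNON dex 4, or without it and siNON vehicle 3. The cause was not tested.

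Counts over all genes at 0.01 were 2047 and 2206 for dex in siNON and siBCOR cells, 1252 and 3190 for depletion in vehicle and dex, and 2 for the interaction. Without siBCOR vehicle 1 depletion in vehicle called 1810, and without siNON dex 3 depletion in dex called 4198. The 16 interaction calls became 5 with RLE scaling, 6 with upper-quartile scaling, 81 in DESeq2, 5 with no filter, 1790 without both libraries that stand apart, and 2 to 2537 with 1 library left out. Depletion in vehicle called 1458 higher and 1352 lower, and 1048 and 1539 with RLE scaling, 988 and 1313 with upper-quartile scaling.

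Replicate numbers recur in all groups, and the labels do not say whether a number marks a shared batch. Deviations of same-numbered libraries had r from -0.526 to 0.502, over 0.1 in 6 of 24 pairs, and were best with the own number in 12 of 48. The highest r were 0.502 for vehicle 3 and 0.304 for dex 4, each between siNON and siBCOR cells. These correlations cannot show whether same-numbered libraries share a batch. With a replicate block the members called were 6, 3, 5, 13 and 0 in the 5 comparisons, and the interaction called 3 of all genes. A BCOR peak lay within 50 kb of 22 members, within 10 kb of 15 and within 100 kb of 27. Genes with few reads limit precision, IFI44L, IFIT2, OASL and PSMB8 among those called.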
